A study of Homo sapiens with 18 samples.

Results

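The SWI/SNF complex subunits were described at transcript level as 30 of the 43236 gene symbols in a count table of cultured human cells. They were taken by symbol and not by any measured value, and 27 of them had enough counts to be tested. The cells are NCI-H1693, an established line of non-small cell lung cancer that the labels call SMARCA4-deficient. Cells were kept in 50 nM PRT3789 for 6, 48 or 72 h, and control cells were kept in DMSO for the same times. Each of the 6 groups had 3 libraries of poly(A)-selected RNA. PRT3789 is, per the title, a degrader selective for SMARCA2. It acts on the SMARCA2 protein, so the SMARCA2 transcript does not check that the treatment worked.

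SWI/SNF complexes use the energy of ATP to slide or eject nucleosomes and so change how accessible DNA is to transcription factors. Each complex carries a single ATPase, SMARCA2 or SMARCA4, and is assembled in 1 of 3 forms. Many core subunits, but not all, are shared between the forms. Canonical BAF (cBAF) holds ARID1A or ARID1B and a DPF protein. PBAF holds ARID2, PBRM1, BRD7 and PHF10, and non-canonical BAF (ncBAF) holds BRD9 and BICRA or BICRAL. Most positions can be filled by more than 1 paralog. Loss of SMARCA4 is recurrent in lung cancer, and cells without it depend on SMARCA2 for their remaining SWI/SNF ATPase.

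Library totals ran from 23154484 to 31094797 counts, and each library held 14743 to 15677 genes with 10 counts or more. The labels do not say that the 3 libraries of a group came from separate cultures, so each p-value measures only the spread between these libraries, which may be technical. All groups come from 1 cell line, and in bulk RNA fewer cells of a kind and less RNA per cell cannot be told apart. The 6 epithelial markers (EPCAM, KRT7, KRT8, KRT18, KRT19 and CDH1) summed to between 4140 and 11000 CPM (counts scaled to a common library size) over the libraries, whereas the 3 markers of lung adenocarcinoma (NKX2-1, NAPSA and SFTPB) summed to between 0.29 and 3.98 CPM and were thus near 0. The epithelial sum was 4700 to 4930 CPM in PRT3789 and 10200 to 11000 CPM in DMSO at 48 h, and 4140 to 4360 CPM in PRT3789 and 9160 to 9940 CPM in DMSO at 72 h. At 48 h KRT8 (log2 fold change -1.29 ± 0.08 SE), KRT18 (-1.35 ± 0.08), CDH1 (-0.69 ± 0.16), EPCAM (-0.30 ± 0.09) and KRT19 (-0.19 ± 0.06) were called lower, and KRT7 (0.24 ± 0.37) was not called. At 72 h KRT8 (-1.36 ± 0.08), KRT18 (-1.43 ± 0.08) and CDH1 (-0.99 ± 0.16) were called lower, while EPCAM (-0.07 ± 0.09), KRT19 (0.07 ± 0.06) and KRT7 were not called. The sum thus mostly followed KRT8 and KRT18. At 6 h KRT19 alone of these markers was called lower (-0.34 ± 0.06). Markers of other cell types differed between the groups as well: at 48 h the 3 endothelial markers summed to 0.0995 to 0.331 CPM in PRT3789 and 2.13 to 2.91 CPM in DMSO, the 4 blood markers to 4.47 to 4.69 CPM in PRT3789 and 7.6 to 8.78 CPM in DMSO, and the 4 fibroblast markers to 84 to 87.2 CPM in PRT3789 and 108 to 126 CPM in DMSO. The fibroblast sum was mostly LUM, at 61.5 to 128 CPM over all libraries, and COL1A1, at 11.7 to 24.7 CPM. Of the endothelial markers CDH5 reached 3.1 CPM, while PECAM1 reached 0.207 and VWF 0.332 CPM. The blood sum was mostly CD68, at 3.27 to 15.1 CPM, and PTPRC, the next highest, reached 0.953 CPM. At 48 h CDH5 (-6.32 ± 0.60) and CD68 (-0.97 ± 0.11) were called lower, while PTPRC (0.48 ± 0.49) and CD79A (-1.09 ± 0.69) were not called. Of the fibroblast markers LUM (-0.55 ± 0.10) and PDGFRB (-2.54 ± 0.48), which reached 1.4 CPM, were called lower at 48 h. COL1A1 (0.12 ± 0.17) and DCN (-1.64 ± 1.33) were not called. None of these marker genes was at 0 in all libraries, and the part of these shifts in the subunit results was not tested.

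The libraries of 6 h stood apart by transcript length, and the longest transcripts among the subunits show it. ARID1A, whose transcript has 8595 bases, was at 137.4, 168.4 and 102 CPM in PRT3789 and at 133.6, 88.68 and 86.4 CPM in DMSO at 6 h. BCL7C, whose transcript has 857 bases, was at 78.28, 69.43 and 104.4 CPM in PRT3789 and at 53.47, 86.92 and 94.67 CPM in DMSO. The libraries with much ARID1A had little BCL7C, and replicates of 1 group lay on opposite sides. As a description over the 27 tested subunits, which share each library, Spearman's rho of transcript length against the log2 deviation from the time's average was 0.631, 0.729 and -0.82 in PRT3789 and 0.622, -0.734 and -0.612 in DMSO at 6 h. At 48 h it was 0.454, 0.176 and 0.375 in PRT3789 and 0.0614, -0.471 and -0.402 in DMSO, so that it was positive in PRT3789 and, except for DMSO replicate 1, negative in DMSO. At 72 h it lay between -0.102 and 0.0275 in PRT3789 and between -0.21 and 0.225 in DMSO. Over 13071 genes rho at 6 h was 0.341, 0.533 and -0.552 in PRT3789 and 0.57, -0.416 and -0.53 in DMSO. At 48 h rho over these genes was 0.258, 0.15 and 0.254 in PRT3789 and 0.0271, -0.357 and -0.258 in DMSO. Each PRT3789 library of 48 h thus lay above each DMSO library of that time. At 72 h it lay between -0.0998 and 0.119 in PRT3789 and between -0.135 and 0.175 in DMSO. The fits were therefore repeated with a length trend removed from each library, and values so obtained are named as such. That trend was fitted over all genes with a known length and enough counts, and not over the subunits alone. It was taken from deviations from the mean over all libraries.

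**Figure D1:**
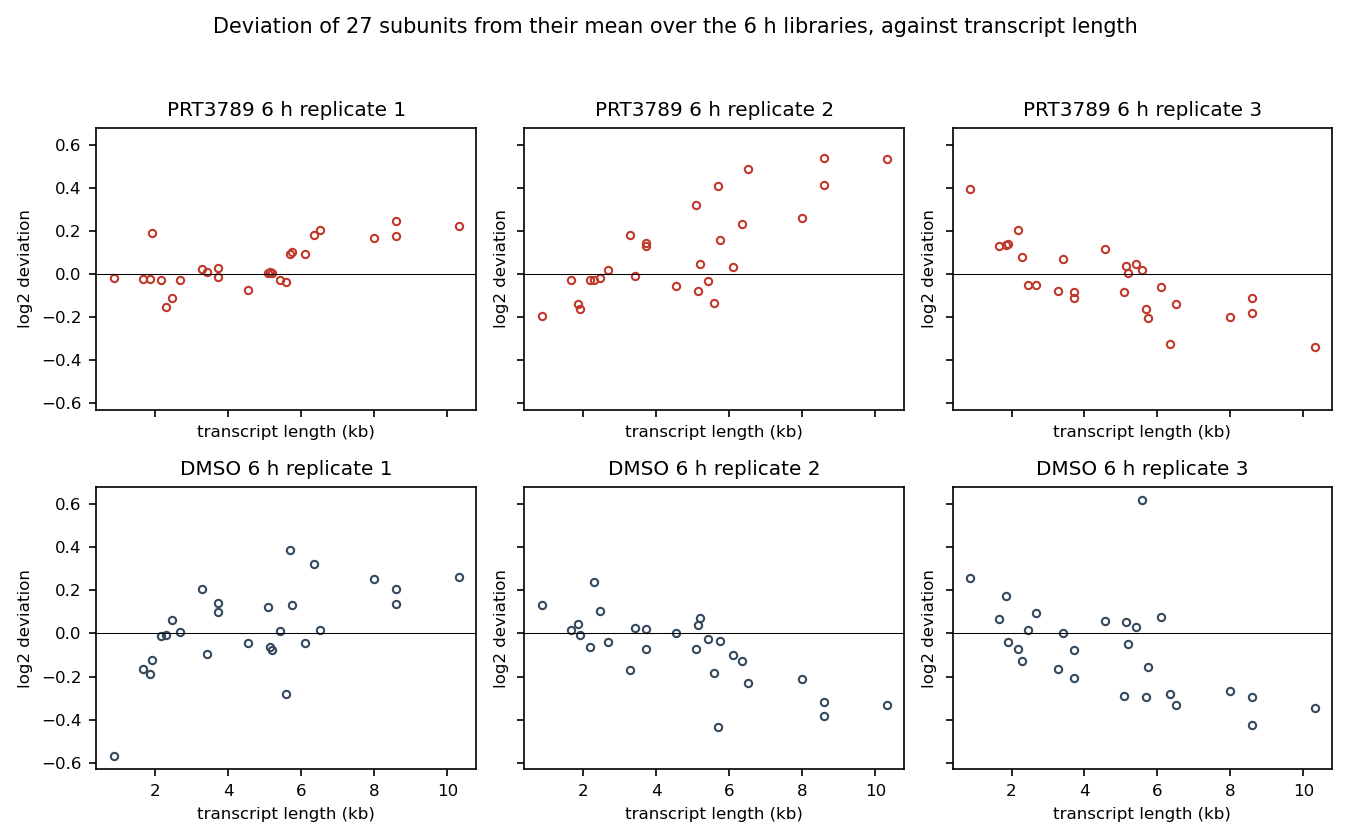
Each panel is a 6 h library and each point 1 of the 27 tested subunits, with transcript length in kilobases on the x axis and the log2 deviation from the subunit's mean over the 6 h libraries on the y axis. Long transcripts were high in PRT3789 replicates 1 and 2 and in DMSO replicate 1, and low in PRT3789 replicate 3 and in DMSO replicates 2 and 3.

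At 6 h no subunit was called by the quasi-likelihood test of edgeR (adjusted p under 0.05), by DESeq2 or by limma-voom, against 4.33% of all tested genes in edgeR (1.28% higher, 3.04% lower, 1.03% called and at least 2-fold), and 3 subunits had an unadjusted p under 0.05. The log2 changes ran from -0.15 to 0.40, with a median of 0.05 for the subunits and -0.01 for all tested genes. ARID1A (log2 fold change 0.40 ± 0.18 SE, adjusted p = 0.298), BICRAL (0.38 ± 0.14, adjusted p = 0.174) and ARID2 (0.32 ± 0.13, adjusted p = 0.226) had the largest values. With the length trend removed these 3 were called, ARID1A with 0.36 ± 0.10 (adjusted p = 0.0429), ARID2 with 0.27 ± 0.06 (adjusted p = 0.00404) and BICRAL with 0.35 ± 0.09 (adjusted p = 0.0317). Without DMSO replicate 1 of 6 h 2 subunits were called higher, and without PRT3789 replicate 3 of 6 h 1 subunit. The share of all tested genes called in these refits was not recorded.

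After 48 h in PRT3789, ARID1A, ARID1B, ARID2, PBRM1 and BICRAL were among the subunits that rose. BRD7, SMARCB1, SMARCD2 and ACTL6A were those that fell. The risers named here are each specific to a form of the complex, but so are BRD7 and the uncalled DPF2 and BICRA. These named risers also have the longest transcripts of the tested subunits, from 6501 bases for BICRAL to 10310 bases for ARID1B. ARID1A, the DNA-binding subunit of cBAF and a common tumour suppressor, was 2.1-fold higher (log2 fold change 1.07 ± 0.18 SE, adjusted p = 0.000121 in edgeR). ACTL6A, an actin-related subunit, was 1.45-fold lower (-0.53 ± 0.09, adjusted p = 0.000194), and SMARCD2, a core subunit, 1.41-fold lower (-0.49 ± 0.06, adjusted p = 2.99e-06). In all, 12 of the 27 tested subunits rose and 4 fell at 48 h (59.3%), where 42.1% of the 16291 tested genes were called, 21.2% higher and 20.9% lower. With the length trend removed 12 rose and 5 fell, with SS18L1 lost and BCL7C and SMARCA2 gained. The share of all tested genes called in that refit was not recorded. ARID1A was the 1 subunit both called and changed at least 2-fold at that time, against 11.1% of all tested genes. With the length trend removed the log2 change of ARID1A was 0.88, which is below 2-fold. The median size of the log2 change was 0.24 for the subunits and 0.32 for all tested genes, and the median change itself was 0.16 for the subunits and 0.01 for all tested genes.

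At 72 h 6 subunits rose and 5 fell (40.7%), against 43.4% of all tested genes, 21.3% higher and 22% lower. None of the called subunits had changed 2-fold, against 12.8% of all tested genes. The median log2 change was 0.16 for the subunits and 0.01 for all tested genes, with a median size of 0.18 for the subunits and 0.32 for all tested genes. ARID1A, BRD9, SMARCD3 and SS18 were called higher at both 48 and 72 h, and BRD7, SMARCB1, SMARCD2 and ACTL6A were called lower at both. A further 8 subunits were called at 48 h alone, all higher, and 3 at 72 h alone. Among these 8, ARID1B, ARID2, PBRM1 and BICRAL were also called at 72 h with the length trend removed. The change of the PRT3789 effect between 48 and 72 h was tested for each gene, and 0 of 27 subunits and 0% of all tested genes were called, with 1 subunit at an unadjusted p under 0.05 and 0 subunits called by DESeq2 or limma-voom. A difference between those times is therefore not shown for any subunit. Between 48 and 6 h the effect of PRT3789 was called different for 6 subunits (22.2%), higher at 48 h for BRD9 and SS18 and lower for ACTL6A, BRD7, SMARCB1 and SMARCD2, against 19.2% of all tested genes, 8.83% higher and 10.4% lower. The call of BRD9 was lost under 17 of 21 alternatives, that of SS18 under 15 of 21 and that of SMARCB1 without a filter. None of these 6 differences was 2-fold, against 6.48% of all tested genes.

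**Figure D2:**
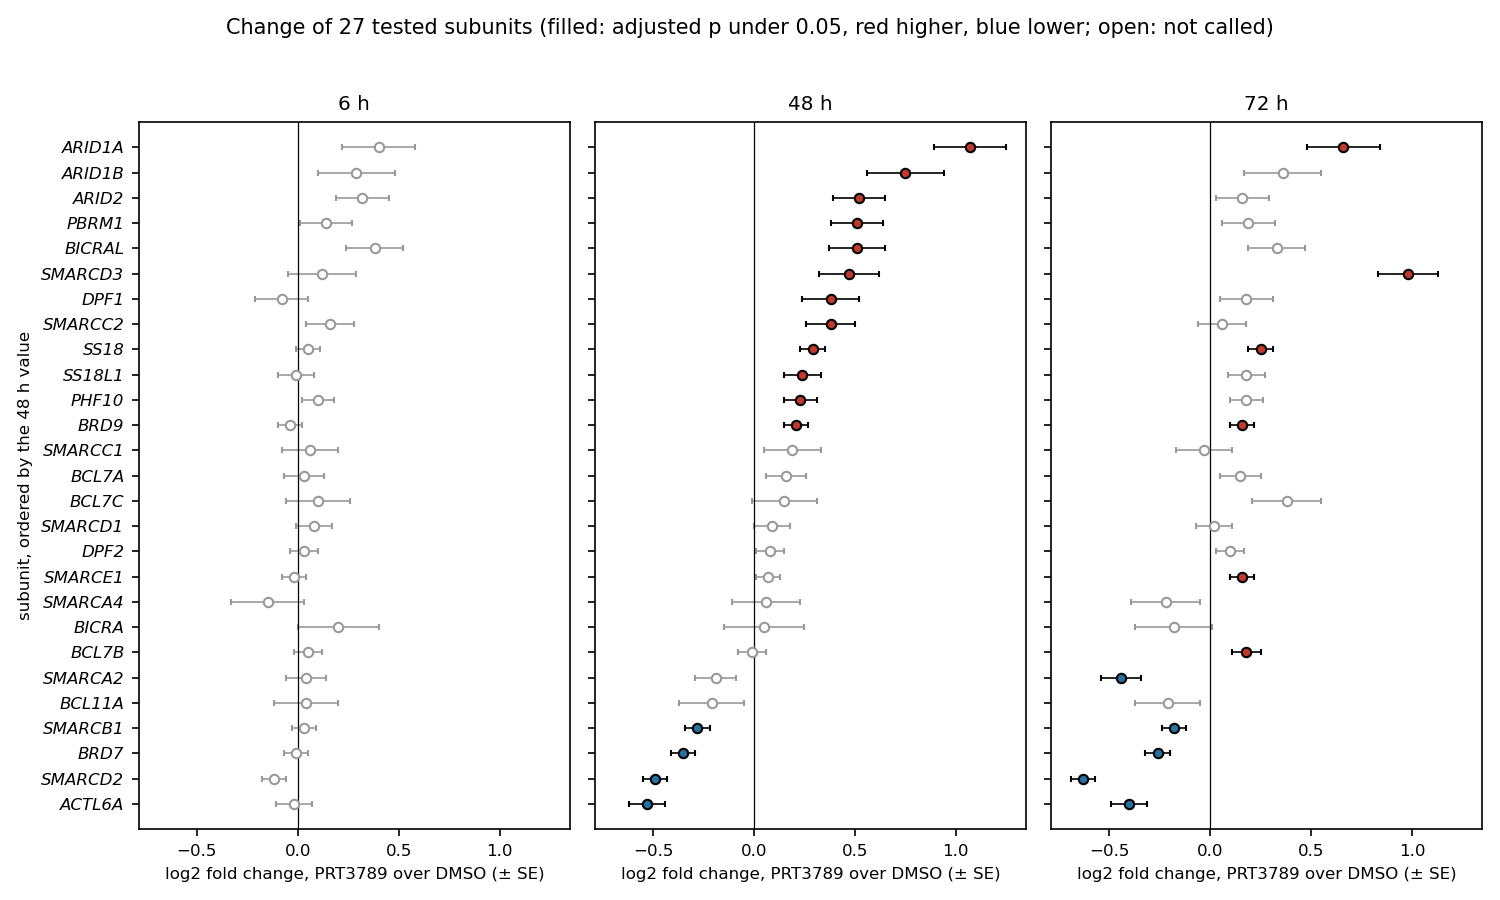
The log2 fold change of PRT3789 over DMSO with its standard error is drawn for the 27 tested subunits at 6, 48 and 72 h, in the order of the 48 h values. Filled points passed an adjusted p of 0.05, with 0 at 6 h, 16 at 48 h and 11 at 72 h, and ARID1A at 48 h (1.07) and SMARCD3 at 72 h (0.98) lie farthest to the right.

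Promoter sequence was set beside these values for 4 subunits: ARID1A, which rose most at 48 h, SMARCD2, with the smallest adjusted p, SMARCA2, the target of the compound, and SMARCB1, the other subunit with an AP-1 match. Windows of 300 bases, 250 before and 50 after a start site, come from RefSeq on GRCh38.p14. Only 1 window per gene was searched, the one nearest the annotated gene start, although some genes have more, such as SMARCA2 with 4. The BICRAL window, 42746737 to 42747036 on chromosome 6, lay wholly after its annotated start at 42746339. Windows were found for 26 of the 30 subunits, and not for ACTL6A, ARID2, SMARCC1 and SMARCC2. Capitals mark a match on either strand to the AP-1 motif TGANTCA, the TEAD motif GGAATG, the GC box GGGCGG, the ETS motif CCGGAAGT or the CCAAT box, and each line reads 5′ to 3′ on the gene's strand. The lines are chr1:26695765-26696064 on the plus strand for ARID1A, chr17:63842636-63842935 on the minus strand for SMARCD2, chr9:2015097-2015396 on the plus strand for SMARCA2 and chr22:23786716-23787015 on the plus strand for SMARCB1.
ARID1A: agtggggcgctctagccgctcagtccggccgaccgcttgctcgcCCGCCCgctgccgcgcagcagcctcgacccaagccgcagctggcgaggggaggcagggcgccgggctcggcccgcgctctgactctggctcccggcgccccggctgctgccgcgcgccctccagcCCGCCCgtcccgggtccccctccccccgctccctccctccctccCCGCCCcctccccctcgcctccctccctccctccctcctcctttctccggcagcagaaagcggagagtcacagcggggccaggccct
SMARCD2: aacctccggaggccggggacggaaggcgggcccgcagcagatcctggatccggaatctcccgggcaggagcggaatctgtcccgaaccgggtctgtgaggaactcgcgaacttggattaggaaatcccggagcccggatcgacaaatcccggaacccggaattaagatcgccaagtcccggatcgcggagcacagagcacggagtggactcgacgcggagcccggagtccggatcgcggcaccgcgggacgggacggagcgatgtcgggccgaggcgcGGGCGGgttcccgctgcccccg
SMARCA2: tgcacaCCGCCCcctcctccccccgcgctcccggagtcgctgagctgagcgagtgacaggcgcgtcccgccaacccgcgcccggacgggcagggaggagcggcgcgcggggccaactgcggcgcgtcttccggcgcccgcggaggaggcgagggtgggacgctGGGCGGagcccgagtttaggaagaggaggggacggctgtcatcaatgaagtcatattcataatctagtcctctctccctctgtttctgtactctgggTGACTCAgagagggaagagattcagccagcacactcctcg
SMARCB1: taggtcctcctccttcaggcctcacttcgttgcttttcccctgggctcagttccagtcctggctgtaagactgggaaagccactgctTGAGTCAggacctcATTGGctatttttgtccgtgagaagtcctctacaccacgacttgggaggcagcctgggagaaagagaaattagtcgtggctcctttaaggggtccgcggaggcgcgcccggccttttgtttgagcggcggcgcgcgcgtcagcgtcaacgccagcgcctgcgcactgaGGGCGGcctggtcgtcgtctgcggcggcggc

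The ARID1A and SMARCD2 windows held GC boxes and no AP-1 match. SMARCA2 and SMARCB1 were the 2 subunits with an AP-1 match, TGACTCA from 10 to 16 bases after the start of SMARCA2 and TGAGTCA at -163 to -157 from that of SMARCB1, counting the start base as 0. That is 7.69% of the 26 windows, against 7.72% of all 27304 windows of the same length. GC boxes were found in 84.6% of the subunit windows and 44.5% of all windows, CCAAT boxes in 38.5% and 35.7%, TEAD motifs in 0% and 14.1%, and ETS motifs in 0% and 4.41%. The median GC content was 68.2% for the subunits and 58.3% for all windows. A match describes letters only, and no binding was measured.

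Of the ATPases, SMARCA2 (chromosome 9, 2015347 to 2193620, GRCh38.p14) was at 42.69, 44.43 and 34.47 CPM in PRT3789 and at 43.55, 38.86 and 35.7 CPM in DMSO at 6 h. At 48 h it was at 39.12, 34.93 and 36.96 CPM in PRT3789 and at 44.27, 40.2 and 41.99 CPM in DMSO. At 72 h it was at 34.28, 37.4 and 32.8 CPM in PRT3789 and at 44.96, 49.89 and 46.86 CPM in DMSO. The groups overlapped at 6 h and lay apart at 48 and 72 h. SMARCA2 was not called at 6 h (0.04 ± 0.10, adjusted p = 0.896) or 48 h (-0.19 ± 0.10, adjusted p = 0.126), and was 1.36-fold lower at 72 h (-0.44 ± 0.10, adjusted p = 0.00108). With the length trend removed it was also called lower at 48 h (-0.31 ± 0.06, adjusted p = 0.000315). SMARCA4 (chromosome 19, 10961030 to 11062273) was transcribed in this line, at 7.577, 7.07 and 7.869 CPM in PRT3789 and 6.388, 6.825 and 11.92 CPM in DMSO at 6 h, and DMSO replicate 3 stood above the other libraries. At 48 h SMARCA4 was at 9.461, 10.15 and 11.01 CPM in PRT3789 and at 9.28, 10.89 and 9.257 CPM in DMSO. At 72 h it was at 7.981, 9.732 and 9.774 CPM in PRT3789 and at 11.09, 11.25 and 9.705 CPM in DMSO. Those groups overlapped at every time, and the log2 change of SMARCA4 was -0.15 ± 0.18, 0.06 ± 0.17 and -0.22 ± 0.17 at 6, 48 and 72 h (adjusted p = 0.778, 0.816 and 0.318). The counts say nothing about whether SMARCA4 protein was made.

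Set per length of transcript, SMARCA2 was the larger part of the ATPase transcripts. It made up 80.6%, 78.9% and 76.5% of their summed CPM per kilobase in PRT3789 and 79.7%, 81.1% and 82.4% in DMSO at 72 h, and the groups overlapped. The summed level of both ATPases was 8.27 ± 0.325 CPM per kilobase in PRT3789 and 9.09 ± 0.238 in DMSO at 48 h, and 7.7 ± 0.477 in PRT3789 and 10.1 ± 0.49 in DMSO at 72 h (SD, n = 3), without overlap at either time.

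Of the 4 tested cBAF-specific subunits 3 rose at 48 h, where 21.2% of all tested genes did, and 1 rose at 72 h, where 21.3% did. ARID1A (chromosome 1, 26696015 to 26782104) was at 319.6, 253.5 and 287.8 CPM in PRT3789 and at 162.8, 133.4 and 114.2 CPM in DMSO at 48 h. At 72 h ARID1A was at 279, 281.8 and 264.2 CPM in PRT3789 and at 161.7, 177.8 and 182.7 CPM in DMSO. The lowest PRT3789 library stood above the highest DMSO library at both times, whereas the 6 h libraries overlapped. The 72 h change was 1.58-fold (0.66 ± 0.18, adjusted p = 0.00574). With the length trend removed the log2 change was 0.88 ± 0.10 at 48 h and 0.66 ± 0.10 at 72 h. ARID1B, the paralog that takes the place of ARID1A, was at 62.13, 76.85 and 42.06 CPM in PRT3789 and at 63.67, 42.29 and 41.76 CPM in DMSO at 6 h, with overlap. At 48 h ARID1B was at 121.6, 105.9 and 110.7 CPM in PRT3789 and at 82.47, 63.6 and 54.92 CPM in DMSO. It was 1.68-fold higher at 48 h (0.75 ± 0.19, adjusted p = 0.0046; 0.54 ± 0.11 with the length trend removed) and was not called at 72 h (0.36 ± 0.19, adjusted p = 0.144; 0.0091 with the length trend removed), when it was at 118.3, 114.8 and 117.5 CPM in PRT3789 and at 83.08, 89.73 and 101 CPM in DMSO. Its groups did not overlap at 48 or 72 h. Of the DPF proteins, which bind modified histones through PHD fingers, DPF1 was 1.30-fold higher at 48 h (0.38 ± 0.14, adjusted p = 0.0382), a call lost under 9 of 16 alternatives, among them DESeq2, no filter on low counts, a replicate block within each time, and leaving out DMSO replicate 3 or any PRT3789 library of that time. DPF2, the DPF gene with the highest level per kilobase, was not called at any time (0.03, 0.08 and 0.10 at 6, 48 and 72 h).

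Both ARID1 transcripts rose at 48 h, and ARID1A made up a larger share of them in PRT3789. Their summed level was 44.3 ± 4.6 CPM per kilobase in PRT3789 and 22.4 ± 4.21 in DMSO at 48 h, and 43.3 ± 1.04 in PRT3789 and 29.1 ± 2.11 in DMSO at 72 h (SD, n = 3). ARID1A made up 72.6%, 72.4% and 74.4% of that sum in PRT3789 and 71.6%, 71.6% and 71.3% in DMSO at 6 h, 75.9%, 74.2% and 75.7% in PRT3789 and 70.3%, 71.6% and 71.4% in DMSO at 48 h, and 73.9%, 74.6% and 73% in PRT3789 and 70%, 70.4% and 68.5% in DMSO at 72 h. The groups did not overlap at any of the 3 times, and the mean difference was 1.63, 4.17 and 4.2 percentage points. No test was made of shares. The length trend of the libraries was not removed from these sums and shares, and division by transcript length does not remove it. With that trend removed the log2 changes at 48 h were 0.88 for ARID1A and 0.54 for ARID1B.

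Of the 4 tested PBAF-specific subunits 3 rose and 1 fell at 48 h, against 21.2% of all tested genes higher and 20.9% lower. ARID2, the DNA-binding subunit of PBAF, and PBRM1, which reads acetylated histones through its bromodomains, are described together. At 6 h ARID2 was at 141.9, 167.4 and 116.4 CPM in PRT3789 and at 138, 100.7 and 102.6 CPM in DMSO, and PBRM1 at 52.6, 56.14 and 40.77 CPM in PRT3789 and at 55.87, 40.45 and 38.87 CPM in DMSO. Those groups overlapped. At 48 h ARID2 was at 173.7, 169.7 and 178.2 CPM in PRT3789 and at 138.6, 110.1 and 115.2 CPM in DMSO, 1.43-fold higher (0.52 ± 0.13, adjusted p = 0.0034). PBRM1 was at 73.84, 73.17 and 70.84 CPM in PRT3789 and at 56.12, 47.12 and 49.33 CPM in DMSO, 1.43-fold higher (0.51 ± 0.13, adjusted p = 0.00341). Neither pair of groups overlapped at 48 h. With the length trend removed the log2 changes were 0.33 ± 0.06 for ARID2 and 0.34 ± 0.06 for PBRM1. At 72 h ARID2 was at 151.2, 152.6 and 140.8 CPM in PRT3789 and at 128, 127.9 and 143.3 CPM in DMSO, and PBRM1 at 68.5, 73.13 and 64.94 CPM in PRT3789 and at 57.28, 57.89 and 65.31 CPM in DMSO. The groups of both overlapped and neither was called (adjusted p = 0.352 and 0.231), whereas with the length trend removed both were, ARID2 with 0.16 ± 0.06 (adjusted p = 0.0237) and PBRM1 with 0.20 ± 0.06 (adjusted p = 0.00665). PHF10, the PHD-finger subunit of PBAF, was 1.17-fold higher at 48 h (0.23 ± 0.08, adjusted p = 0.0245), a call lost without a filter, or without DMSO replicate 2 or 3 or any PRT3789 library of that time.

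BRD7, the bromodomain protein of PBAF, fell while BRD9, its relative in ncBAF, rose. At 6 h BRD7 was at 135.2, 135 and 142.6 CPM in PRT3789 and at 139, 135.7 and 140.7 CPM in DMSO, with overlap. At 48 h BRD7 was at 98.84, 107.6 and 99.68 CPM in PRT3789 and at 124.6, 132.8 and 134 CPM in DMSO (-0.35 ± 0.06, adjusted p = 7.79e-05). At 72 h BRD7 was at 103.5, 104.2 and 108.9 CPM in PRT3789 and at 121.2, 130.7 and 127.1 CPM in DMSO (-0.26 ± 0.06, adjusted p = 0.00126). The groups lay apart at both later times. BRD9 was 1.15-fold higher at 48 h (0.21 ± 0.06, adjusted p = 0.00793; 0.0575 without a filter) and 1.12-fold higher at 72 h (0.16 ± 0.06, adjusted p = 0.0316), and the 72 h call was lost without a filter, with a replicate block within each time, and without any one DMSO library or PRT3789 replicate 1 or 3 of that time. Of the summed CPM per kilobase of the pair, BRD7 made up 47.8%, 49.8% and 49.2% in PRT3789 and 57.2%, 58.1% and 60.5% in DMSO at 48 h, and 48.2%, 48.5% and 48.7% in PRT3789 and 54.2%, 57% and 56% in DMSO at 72 h. BRD7 was thus above BRD9 in every DMSO library and below it in every PRT3789 library of these times, an order that depends on the division by length. Without that division BRD7 made up 66.1% in PRT3789 and 74.2% in DMSO at 48 h.

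In ncBAF, BICRAL rose with BRD9 at 48 h. BICRAL, a scaffold subunit, was at 23.21, 28.24 and 18.31 CPM in PRT3789 and at 20.41, 17.21 and 16.03 CPM in DMSO at 6 h, with overlap. At 48 h BICRAL was at 33.68, 29.54 and 31.29 CPM in PRT3789 and at 25.94, 21.68 and 18.62 CPM in DMSO, 1.43-fold higher (0.51 ± 0.14, adjusted p = 0.00563; 0.37 ± 0.09 with the length trend removed). It was not called at 72 h (0.33 ± 0.14, adjusted p = 0.06), with 27.66, 31.51 and 29.6 CPM in PRT3789 and 23.59, 23.28 and 23.83 CPM in DMSO, although the groups did not overlap and the adjusted p was 0.00506 with the length trend removed. BICRA, its paralog, was not called (0.20, 0.05 and -0.18 at 6, 48 and 72 h). BICRAL made up 76.8% ± 1.11 of their summed CPM per kilobase in PRT3789 and 70.4% ± 1.47 in DMSO at 48 h, and 75.2% ± 2.82 in PRT3789 and 68.2% ± 2.9 in DMSO at 72 h (SD, n = 3), without overlap at either time.

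**Figure D3:**
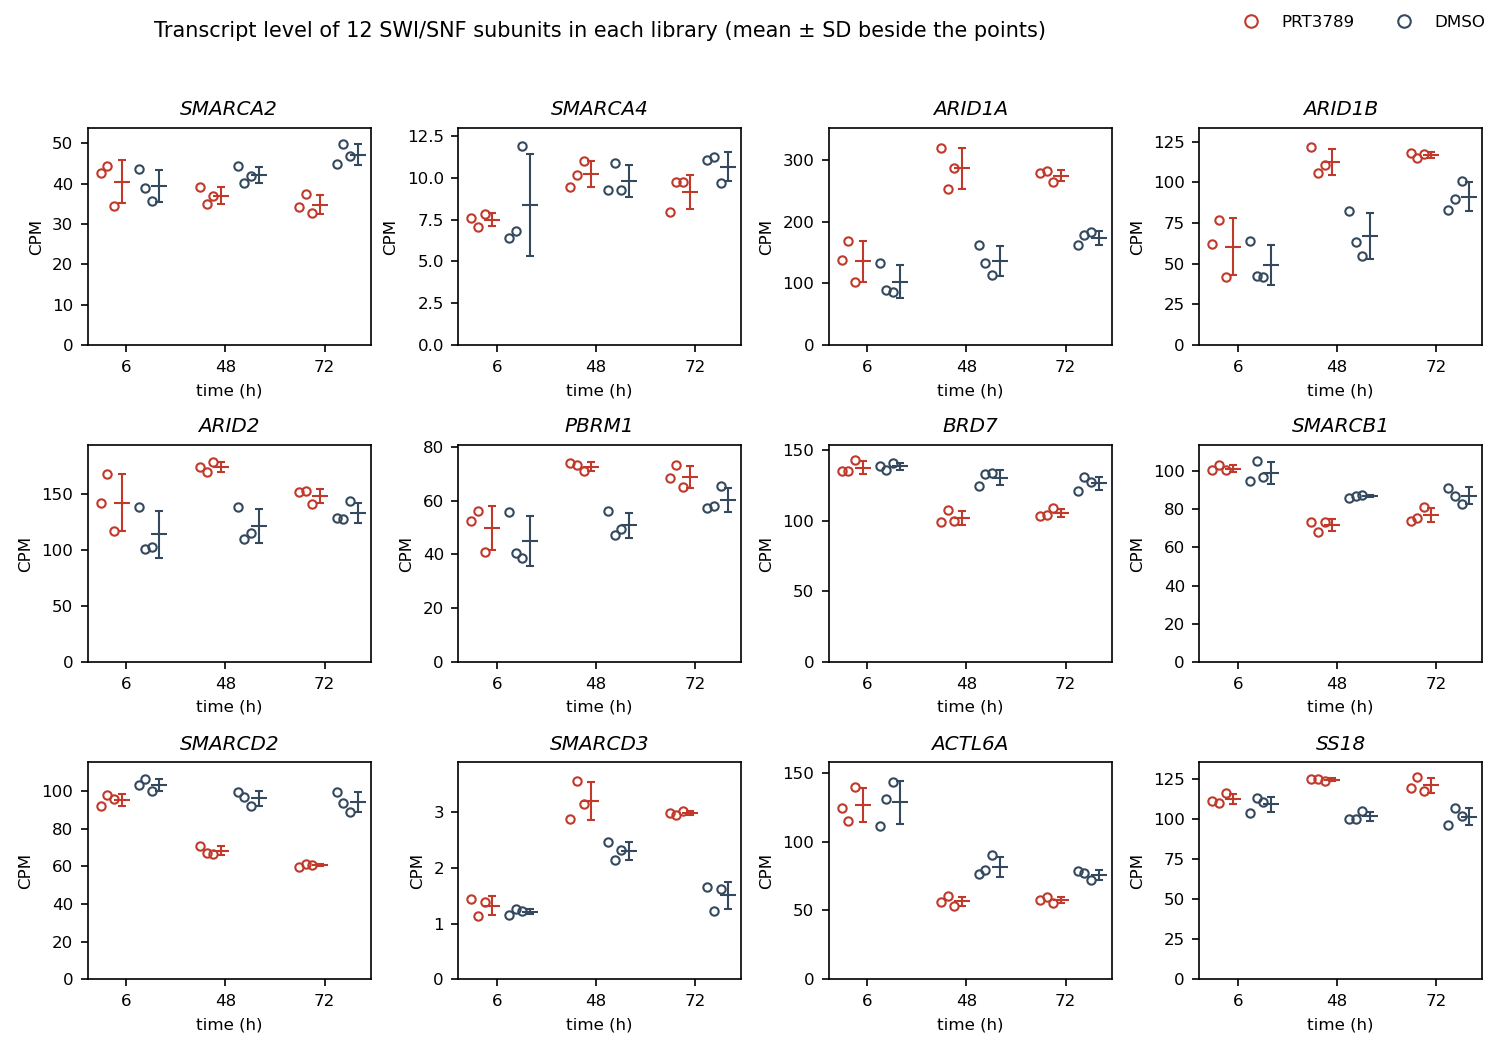
CPM of 12 subunits in every library, with PRT3789 in red left of DMSO in blue at 6, 48 and 72 h and the mean ± SD of the 3 libraries beside the points. The ARID1A, ARID1B, ARID2, PBRM1 and SS18 panels show PRT3789 above DMSO at 48 h, and the BRD7, SMARCB1, SMARCD2 and ACTL6A panels show it below.

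Of the SMARCD family, SMARCD2 fell and SMARCD3 rose at 48 and 72 h. SMARCD1, SMARCD2 and SMARCD3 are alternative core proteins that link the complex to transcription factors. SMARCD2 (chromosome 17, 63832081 to 63842685) was the 1 subunit whose groups lay apart at 6 h (14.7% of all tested genes did), with 91.96, 98.06 and 95.82 CPM in PRT3789 and 103.6, 106.7 and 100.3 CPM in DMSO, but it was not called there (-0.12 ± 0.06, adjusted p = 0.372). At 48 h SMARCD2 was at 71.06, 67.41 and 66.7 CPM in PRT3789 and at 99.8, 97.12 and 91.98 CPM in DMSO. At 72 h SMARCD2 was at 59.96, 61.11 and 60.91 CPM in PRT3789 and at 99.77, 93.96 and 88.84 CPM in DMSO, 1.55-fold lower (-0.63 ± 0.06, adjusted p = 1.24e-07), the smallest adjusted p of any subunit over the 3 comparisons of PRT3789 with DMSO. SMARCD1 was not called at any time (0.08, 0.09 and 0.02). SMARCD3, a paralog linked to muscle and heart, was scarce, at 1.44, 1.131 and 1.393 CPM in PRT3789 and 1.161, 1.256 and 1.23 CPM in DMSO at 6 h, with overlap. At 48 h SMARCD3 was at 2.881, 3.563 and 3.149 CPM in PRT3789 and at 2.46, 2.139 and 2.314 CPM in DMSO, 1.39-fold higher (0.47 ± 0.15, adjusted p = 0.0166), a call lost without a filter, or without DMSO replicate 2 or PRT3789 replicate 2. At 72 h SMARCD3 was at 2.984, 2.96 and 3.026 CPM in PRT3789 and at 1.655, 1.233 and 1.629 CPM in DMSO, 1.98-fold higher (0.98 ± 0.15, adjusted p = 4.9e-05). The groups of 48 and 72 h did not overlap.

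As a share of the summed CPM per kilobase of the SMARCD family, SMARCD2 made up 52.0% ± 1.97 in PRT3789 and 55.5% ± 3.68 in DMSO at 6 h (SD, n = 3), and the groups overlapped. At 48 h its share was 43%, 43.6% and 42.4% in PRT3789 and 52%, 54.3% and 53.8% in DMSO, and at 72 h 40%, 40% and 40.9% in PRT3789 and 53.4%, 52.6% and 49.8% in DMSO. SMARCD1 made up 57.1% ± 0.618 in PRT3789 and 47.0% ± 1.84 in DMSO at 72 h, and SMARCD3 2.57% ± 0.0633 in PRT3789 and 1.07% ± 0.157 in DMSO (SD, n = 3). On this scale SMARCD1 was thus above SMARCD2 in the mean of the PRT3789 libraries and below it in that of the DMSO libraries at 72 h. Without division by length SMARCD1 was above SMARCD2 in both groups at 72 h, at 64.3% against 34% in PRT3789 and 54.2% against 45.1% in DMSO.

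**Figure D4:**
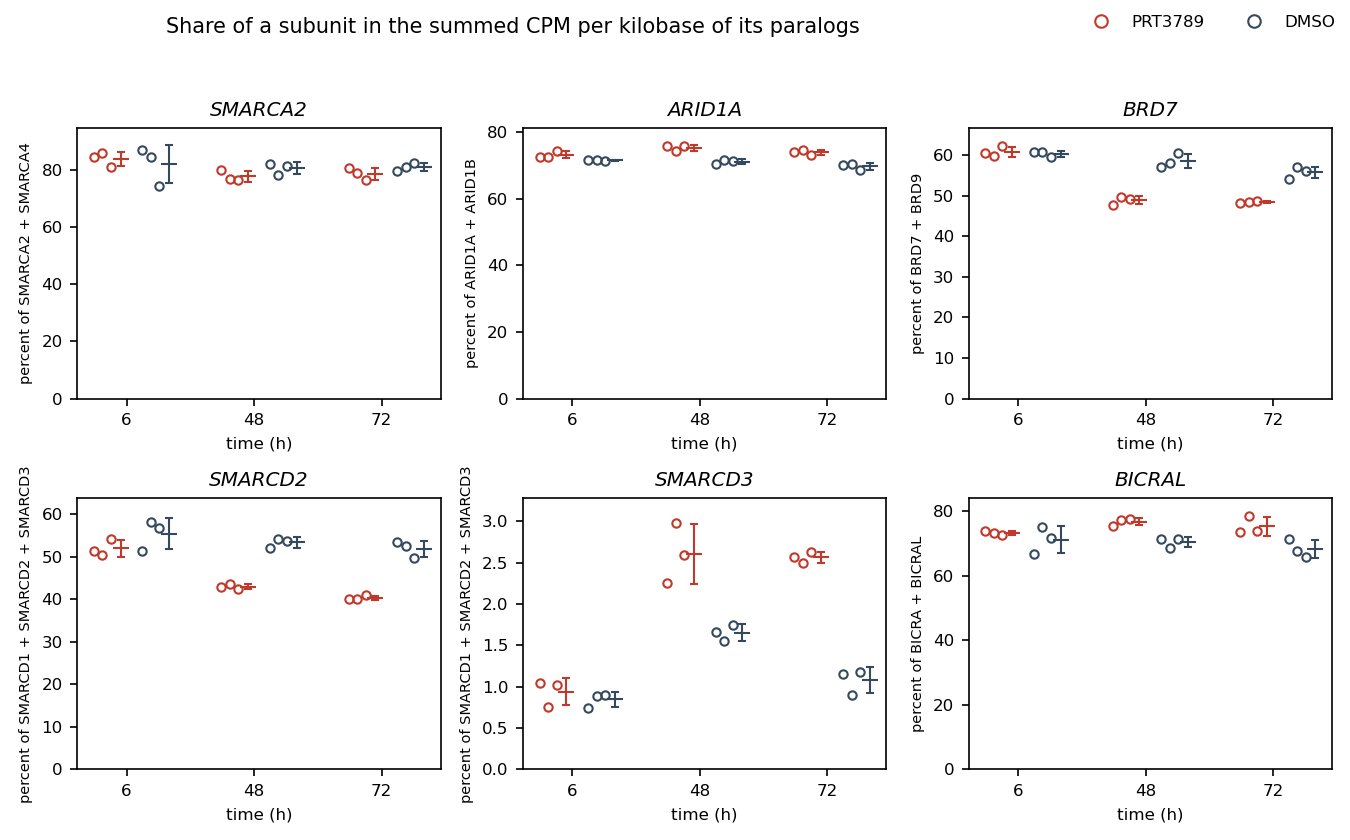
Share in percent of a subunit in the summed CPM per kilobase of its paralogs, 1 point per library, with PRT3789 in red left of DMSO in blue at each time and the mean ± SD of 3 libraries beside the points. The groups overlap in the SMARCA2 panel at every time and lie apart in the ARID1A, BRD7, SMARCD2, SMARCD3 and BICRAL panels at 48 and 72 h.

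ACTL6A, the actin-related protein that sits on the ATPase and is also part of other remodelling and acetyltransferase complexes, was at 124.9, 115.3 and 139.8 CPM in PRT3789 and at 111.6, 131.1 and 143.2 CPM in DMSO at 6 h. At 48 h ACTL6A was at 55.84, 60.2 and 53.51 CPM in PRT3789 and at 76.25, 79.08 and 90.25 CPM in DMSO. At 72 h ACTL6A was at 57.26, 60.09 and 55.55 CPM in PRT3789 and at 78.79, 77.21 and 71.86 CPM in DMSO, 1.32-fold lower (-0.40 ± 0.09, adjusted p = 0.00225). Groups overlapped at 6 h and lay apart at 48 and 72 h. SMARCB1 (chromosome 22, 23786966 to 23838009), the core subunit lost in rhabdoid tumours, was at 100.1, 103 and 100.1 CPM in PRT3789 and at 94.7, 105.1 and 96.56 CPM in DMSO at 6 h. At 48 h SMARCB1 was at 73.16, 67.74 and 73.36 CPM in PRT3789 and at 85.94, 86.84 and 87.28 CPM in DMSO, 1.21-fold lower (-0.28 ± 0.06, adjusted p = 0.00146). At 72 h SMARCB1 was at 73.95, 75.37 and 81.01 CPM in PRT3789 and at 91.18, 86.93 and 82.56 CPM in DMSO, 1.13-fold lower (-0.18 ± 0.06, adjusted p = 0.026), and that call was lost without replicate 1 or 2 of either group, with total counts, without a filter and with the length trend removed. The 6 h groups overlapped and those of 48 and 72 h did not.

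SS18, a subunit of cBAF and ncBAF that is fused to SSX proteins in synovial sarcoma, was at 111.6, 110.5 and 116.5 CPM in PRT3789 and at 103.8, 113.1 and 111.1 CPM in DMSO at 6 h. At 48 h SS18 was at 125.5, 125.3 and 124 CPM in PRT3789 and at 100.1, 100.3 and 105.2 CPM in DMSO, 1.23-fold higher (0.29 ± 0.06, adjusted p = 0.000566). At 72 h SS18 was at 119.7, 126.7 and 117.5 CPM in PRT3789 and at 96.21, 107.1 and 101.8 CPM in DMSO, 1.19-fold higher (0.25 ± 0.06, adjusted p = 0.00173). The later groups lay apart and the 6 h groups overlapped. Its scarcer paralog SS18L1 was 1.18-fold higher at 48 h (0.24 ± 0.09, adjusted p = 0.0373), a call lost under 10 of 16 alternatives, among them DESeq2, no filter, a replicate block within each time, removal of the length trend (adjusted p = 0.204), and leaving out DMSO replicate 1 or 3 or PRT3789 replicate 1 or 3.

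The remaining subunits were called at 1 time or not at all. Of the SMARCC scaffold proteins, SMARCC2 was 1.30-fold higher at 48 h (0.38 ± 0.12, adjusted p = 0.0145), a call lost without DMSO replicate 2 or 3 or PRT3789 replicate 1 or 3, and SMARCC1 was not called (0.06, 0.19 and -0.03 at 6, 48 and 72 h). SMARCE1, which binds DNA through an HMG domain, was 1.12-fold higher at 72 h (0.16 ± 0.06, adjusted p = 0.0383), a call lost without DMSO replicate 1 or 3 or PRT3789 replicate 2 or 3, without a filter, with a replicate block within each time and with the length trend removed. Of the small BCL7 proteins, BCL7B was 1.13-fold higher at 72 h (0.18 ± 0.07, adjusted p = 0.0496), a call lost under 11 of 16 alternatives, among them DESeq2, limma-voom, both other filters, a replicate block over all groups, and leaving out any one DMSO library or PRT3789 replicate 1 or 3. BCL7A was not called (0.03, 0.16 and 0.15), nor was BCL7C (0.10, 0.15 and 0.38), the shortest transcript of the set. With the length trend removed BCL7C was called higher at 48 h (0.36 ± 0.06, adjusted p = 7.92e-05) and at 72 h (0.41 ± 0.06, adjusted p = 1.51e-05). BCL11A, a zinc-finger transcription factor that copurifies with BAF, was not called (0.04, -0.21 and -0.21). ACTL6B and DPF3, paralogs known from neural and muscle tissue, and BCL11B, a T cell and neuronal factor, had at most 3 counts in any library and 13, 14 and 8 counts in all 18 libraries together. They were not tested, and a difference between groups was not detectable at this depth.

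The groups did not overlap for 19 subunits at 48 h, 14 higher and 5 lower, against 56.2% of all tested genes, and for 15 subunits at 72 h, 10 higher and 5 lower, against 61.9%. The exact permutation test of a single gene cannot go below 0.1 with 3 libraries against 3, so that no such count is a test.

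On the scale of CPM per kilobase of transcript the levels of the subunits differed widely. The highest median over the 18 libraries was that of BCL7C at 74 CPM per kilobase, followed by ACTL6A at 42.1, BCL7B at 38.1, SMARCD2 at 37.7 and SMARCD1 at 34.5. Each of the first 4 overlapped in its range with the next. Of the subunits that define a form of the complex, ARID1A had a median of 19.3, BRD7 of 23.8, BRD9 of 17.9, ARID2 of 16.2, ARID1B of 8.03 and PBRM1 of 7.1 CPM per kilobase. SMARCA2 was at 6.9 and SMARCA4 at 1.72 CPM per kilobase, both below the scaffold SMARCC1 at 17.8 and SMARCB1 at 16.7. SMARCD3 at 0.995 and BCL11A at 0.862 CPM per kilobase were the lowest of the tested subunits. These levels rest on 1 canonical transcript per gene, and the isoforms present were not measured.

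**Figure D5:**
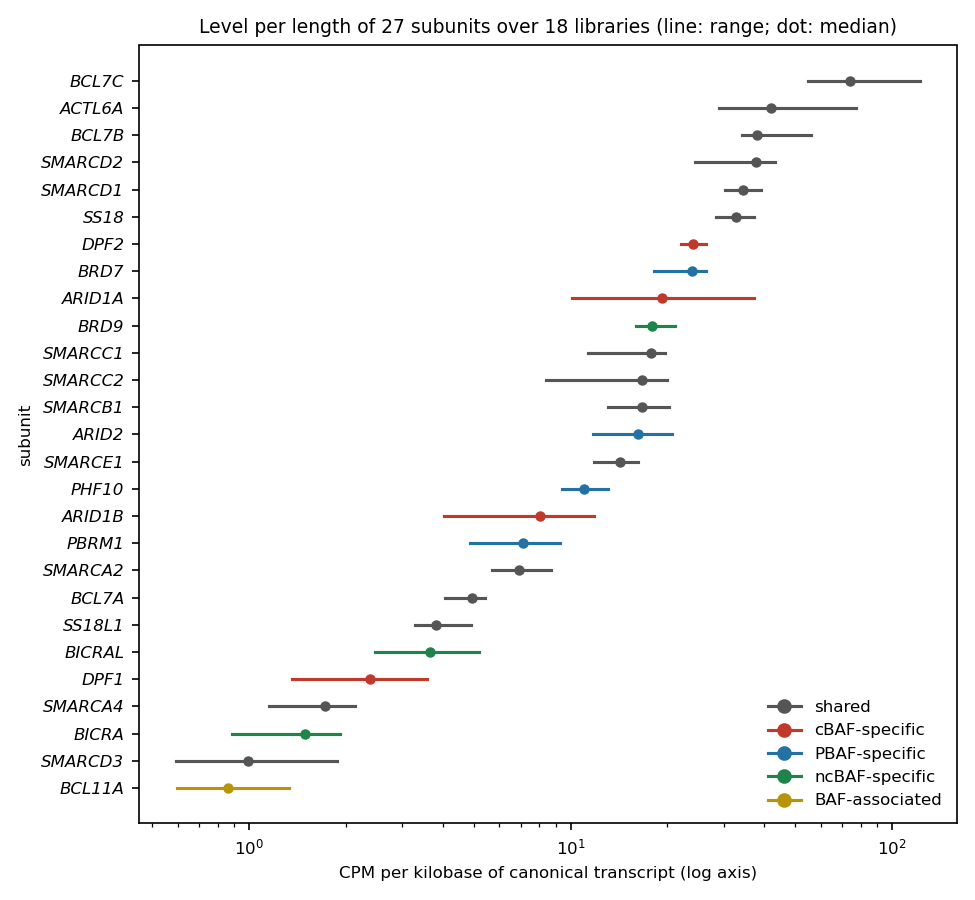
CPM per kilobase of canonical transcript on a log axis for the 27 tested subunits, with the range over 18 libraries as a line, the median as a dot and the form of the complex as the colour. BCL7C is highest with a median of 74 and BCL11A lowest with 0.862, and ARID1A has one of the widest ranges.

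In DMSO alone 2 subunits rose and 6 fell between the 6 h and 48 h samples, against 37.2% of all tested genes, 17.1% higher and 20.1% lower. None of the called subunits changed 2-fold, against 4.55% of all tested genes, and the groups of 11 subunits did not overlap, against 39.4%. SMARCD3 was at 2.3 ± 0.16 CPM at 48 h and at 1.22 ± 0.0488 CPM at 6 h in DMSO (0.92 ± 0.16, adjusted p = 0.00037), and SMARCC2 at 72.7 ± 10.7 CPM at 48 h and 49.8 ± 7.12 CPM at 6 h (0.55 ± 0.12, adjusted p = 0.00183). ACTL6A fell to 81.9 ± 7.4 CPM at 48 h, against 129 ± 16 CPM at 6 h (-0.65 ± 0.09, adjusted p = 4.77e-05; SD, n = 3). DPF1 (-0.95 ± 0.14, adjusted p = 5.43e-05), BCL7B (-0.45 ± 0.07, adjusted p = 0.000112), BCL7C (-0.44 ± 0.16, adjusted p = 0.0468), SMARCE1 (-0.22 ± 0.06, adjusted p = 0.00962) and SMARCB1 (-0.19 ± 0.06, adjusted p = 0.0237) fell as well. ACTL6A and SMARCB1 were thus lower at 48 h than at 6 h without the compound and lower again in PRT3789 than in DMSO at 48 h; both comparisons share the DMSO libraries of 48 h. The calls of BCL7C, SMARCE1 and SMARCB1 in DMSO were each lost without DMSO replicate 2 or 3 of 6 h or replicate 1 of 48 h, those of BCL7C and SMARCB1 also without replicate 2 of 48 h, and that of BCL7C without replicate 3 of 48 h. The BCL7C call was lost under 11 of 14 alternatives, among them limma-voom, total counts and removal of the length trend, which left -0.06 ± 0.06 (adjusted p = 0.428); the other 7 calls held with that trend removed. Those of SMARCE1 and SMARCB1 were also lost with total counts, and that of SMARCB1 without a filter. Without DMSO replicate 1 of 6 h 8 subunits were called higher, and without DMSO replicate 3 of 48 h 5 were. The share of all tested genes called in those refits was not recorded. Between 48 and 72 h in DMSO 0 of 27 subunits were called by edgeR, DESeq2 or limma-voom, against 0.54% of all tested genes in edgeR (0.387% higher, 0.153% lower, 0.0552% called and at least 2-fold), and 7 had an unadjusted p under 0.05. The groups of 11 subunits did not overlap, against 30.1% of all tested genes.

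A list of SNF2-family ATPases outside SWI/SNF was set beside the subunits. Of 22 such genes, all tested, 7 rose and 0 fell at 48 h (31.8%, with a median log2 change of 0.22), against 42.1% of all tested genes called. At 72 h 2 rose and 3 fell (22.7%, with a median of -0.04), against 43.4%. Both shares, taken over either direction, lay below those of all tested genes. By direction, 31.8% of these ATPases were called higher at 48 h, against 21.2% of all tested genes, and 0 were called lower, against 20.9%. At 72 h 21.3% of all tested genes were called higher and 22% lower. HELLS, an ATPase of DNA methylation and replication, was at 21.03, 20.01 and 20.59 CPM in PRT3789 and at 30.17, 28.52 and 31.58 CPM in DMSO at 72 h (-0.55 ± 0.09, adjusted p = 8.97e-05). SMARCAL1, an annealing helicase, was at 27.39, 26.14 and 27.22 CPM in PRT3789 and at 20.76, 20.53 and 20.42 CPM in DMSO at 48 h (0.39 ± 0.07, adjusted p = 0.000207). CHD9 was lower at 72 h (-0.51 ± 0.09, adjusted p = 0.000249), and CHD5, known from neural tissue, had 20, 12 and 13 counts in PRT3789 and 4, 1 and 4 counts in DMSO at 48 h (2.31 ± 0.57, adjusted p = 0.00351). ACTB, the actin of SWI/SNF complexes, which is not among the 30 genes, was not called (0.04 ± 0.17, -0.39 ± 0.17 and -0.40 ± 0.17 at 6, 48 and 72 h, adjusted p = 0.941, 0.0746 and 0.0655).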

How the data were processed

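RNA of NCI-H1693 cells was sequenced as 150 bp pairs. Per the submitters' processing notes and the series text, the authors ran nf-core/rnaseq 3.17.0 with Trim Galore, STAR (GRCh38, patch 14, release 110) and RSEM; versions of the single tools are not given in the sources used here. The deposited table holds expected counts, which were already whole numbers when the authors deposited them. Libraries were stranded per the labels' protocols; how reads shared by near-identical copies were split rests on RSEM's estimates. Of 43236 symbols, 16043 were at 0 in every library, and filterByExpr by group kept 16291; the genes left out made up no more than 0.0482% of a library.

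Library sizes were adjusted with TMM factors in edgeR 4.0.16 (R 4.3.3). Genes were tested two-sided by its robust quasi-likelihood method, with 1 model of 6 group means over all 18 libraries. Adjusted p-values are Benjamini-Hochberg over all tested genes, and a gene was called under 0.05. CPM are edgeR values on scaled library totals, fold changes are PRT3789 over DMSO or 48 h over 6 h, levels and shares are given as mean ± SD, and log2 changes ± SE. The lengths used are those of the canonical GENCODE 44 transcripts, available for 92.1% of tested genes. The labels name no molecular identifiers, so depth speaks to counting error only.

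The 30 members, the lists and the tests were chosen with earlier results of these data known. Subunits are all accounted for: SMARCA2, SMARCA4 and each called member are given with values, the 12 with the smallest adjusted p with every library, and of the other ATPases the 4 with the smallest p at 48 or 72 h. The test was tried on simulated counts first. A shared replicate number was not taken as a pair: in the 9 sets of PRT3789 and DMSO libraries of 1 number and time, the correlation of deviations from group means ran from -0.304 to 0.567. Alternatives were DESeq2 1.42.0 and its size factors, limma-voom (limma 3.58.1), total counts, no filter, a filter of 1 CPM in 3 libraries, removal of the length trend, a replicate block, each time fitted apart, an adjusted p under 0.01 and each library left out.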

Additional observations from a re-analysis of the deposited data

Results flagged for a closer look

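For 6 of 27 tested subunits (22.2%) the effect of PRT3789 itself differed between 48 and 6 h in the interaction test of edgeR. Of all tested genes 19.2% did, a share close to that of the subunits. The effect was lower at 48 h than at 6 h for ACTL6A by a log2 difference of -0.51 ± 0.13 (SE, adjusted p = 0.0109), for SMARCD2 by -0.37 ± 0.08 (adjusted p = 0.00397), for BRD7 by -0.35 ± 0.08 (adjusted p = 0.00552) and for SMARCB1 by -0.31 ± 0.09 (adjusted p = 0.0178). It was higher at 48 h for BRD9 by 0.25 ± 0.08 (adjusted p = 0.0417) and for SS18 by 0.25 ± 0.08 (adjusted p = 0.0432). The differences of ACTL6A, BRD7 and SMARCD2 were called under all 21 alternative fits, each at an adjusted p under 0.05. Those of BRD9 and SS18 were lost under 17 and 15 of 21 alternatives, and that of SMARCB1 without a filter on low counts. For BRD9 these took in each left-out library except PRT3789 replicate 2 of 6 h, and for SS18 each except DMSO replicate 1 of 6 h and DMSO replicate 3 of 48 h. The ARID1A difference was 0.67 ± 0.25 and was not called (adjusted p = 0.0744); with the length trend removed it was 0.53 ± 0.14 (adjusted p = 0.0111).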

How the results depend on the processing

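The calls of 10 of 16 subunits at 48 h, 7 of 11 at 72 h, 3 of 6 for the change of effect and 5 of 8 in DMSO over time passed an adjusted p of 0.05 under every alternative fit. Counts of subunits called higher moved as follows, and the cause was not tested. Shares of all tested genes called were kept for the main fit alone. The counts here and with a library left out therefore have no such share beside them. At 6 h there were 3 with the length trend removed. At 48 h there were 7 without a filter and 7 at an adjusted p under 0.01, against 12. At 72 h there were 10 with total counts, 10 with the length trend removed, 11 with each time fitted apart, 3 without a filter and 3 at an adjusted p under 0.01, against 6. For the change of effect there were 0 with DESeq2 size factors, without a filter, with the 1 CPM filter and at an adjusted p under 0.01, and 1 with total counts, against 2; lower calls were 2 at an adjusted p under 0.01, against 4. In DMSO between 6 and 48 h, total counts gave 5 higher and 3 lower and DESeq2 gave 4 higher, against 2 and 6. With a replicate block over all groups, or within each time, the change of effect had 1 subunit called higher; the block moved no other of these counts by over 1.5 times. The numbers were not taken to pair the libraries, since the correlations of same-numbered libraries had both signs.

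Leaving out a library gave 0 to 2 subunits higher at 6 h, 8 to 11 at 48 h, 3 to 5 at 72 h (3 without DMSO replicate 1 or PRT3789 replicate 3), 0 to 2 for the change of effect and 2 to 8 in DMSO over time; lower calls ran from 4 to 4, 4 to 5, 4 to 4 and 3 to 6 at 48 h, at 72 h, for the change and in DMSO. With a library left out SMARCA2 at 6 h ran from -0.03 (without PRT3789 replicate 2) to 0.16, and was -0.01 without DMSO replicate 3. SMARCA4 ran from -0.29 to 0.19 (without DMSO replicate 3) at 6 h and from -0.02 (without PRT3789 replicate 3) to 0.13 at 48 h, where it was -0.06 with the length trend removed; none of these was called. Without division by length the BRD7 share differed by -8.1 percentage points at 48 h, against -9.67. Of the subunits not called, 12 of 27 at 6 h, 5 of 11 at 48 h and 2 of 16 at 72 h changed sign under some alternative.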
